A study of Mus musculus with 6 samples.

Results

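Macrophages are resident immune cells of the lung and a possible companion of fibroblasts in a primary culture. The genes described here are 10 markers of macrophages, C1qa, C1qb, C1qc, Cd68, Csf1r, Lyz2, Mrc1, Cd14, Trem2 and Tyrobp, chosen by name from the 22180 genes measured. Each had 1 probe set annotated with its symbol alone, so all 10 were measured. They were divided into 2 lysosomal markers, Cd68 and Lyz2, whose proteins lie in endosomes, lysosomes or secretory granules, and 8 lineage markers, which are secreted or sit on the cell surface.

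RNA came from fibroblasts grown out of the digested lungs of adult mice of mixed strain, genotype UBCCreERT/RSmoM2. These mice carry a Cre recombinase that tamoxifen compounds activate, under the promoter of ubiquitin C, which is active in most cell types, and a silent Rosa26 allele of SmoM2, a constitutively active Smoothened. 3 wells were treated with 1 µg/ml 4-hydroxytamoxifen (4OHT) for 48 h and 3 wells with vehicle, each measured on 1 array. Cells of both groups carried both alleles, so the drug and the activated allele cannot be told apart. The labels describe wells split from one isolation and name no separate animals, so p-values measure only the spread between these wells, which may be technical, and the number of arrays limits the precision.

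C1qa, C1qb and C1qc encode the chains of C1q, the recognition molecule of the classical complement pathway, which macrophages secrete and which assembles from all of the chains together. Csf1r is the receptor for CSF1 and IL-34 on which most tissue macrophages depend for survival. Tyrobp is the signalling adaptor of Trem2, a lipid-sensing receptor, and Cd14 hands lipopolysaccharide to Tlr4. Mrc1 is the mannose receptor of alternatively activated macrophages. Cd68 is a heavily glycosylated relative of the LAMP proteins of the lysosomal membrane, abundant in macrophages but known from fibroblasts too, and Lyz2 is the lysozyme of myeloid cells, also made by alveolar type II cells.

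Of the 10 markers, 1 rose in 4OHT wells, Cd68, and 2 fell, C1qb and Lyz2, while 7 did not pass an adjusted p under 0.05 (limma with Benjamini-Hochberg adjustment over all genes). Cd68 was 1.40-fold higher, C1qb was 1.64-fold lower and Lyz2 was 1.18-fold lower. Log2 changes below are 4OHT minus vehicle, and in bulk RNA fewer cells of a type and less RNA per cell cannot be told apart. Over all 22180 genes 12.0% were called, 5.38% higher and 6.62% lower. Among the 8 lineage markers 1 was lower and none was higher, with 2 lower and 1 higher at an unadjusted p under 0.05, a threshold that 26.4% of all genes passed (12.2% higher and 14.2% lower). The median log2 change of the lineage markers was -0.11, against -0.01 over all genes. The 4OHT and vehicle values did not overlap in 4 of the 10 markers, with 4OHT above in 1 and below in 3. Over all genes this share was 32.7%, with 15.0% above and 17.8% below.

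**Figure D1:**
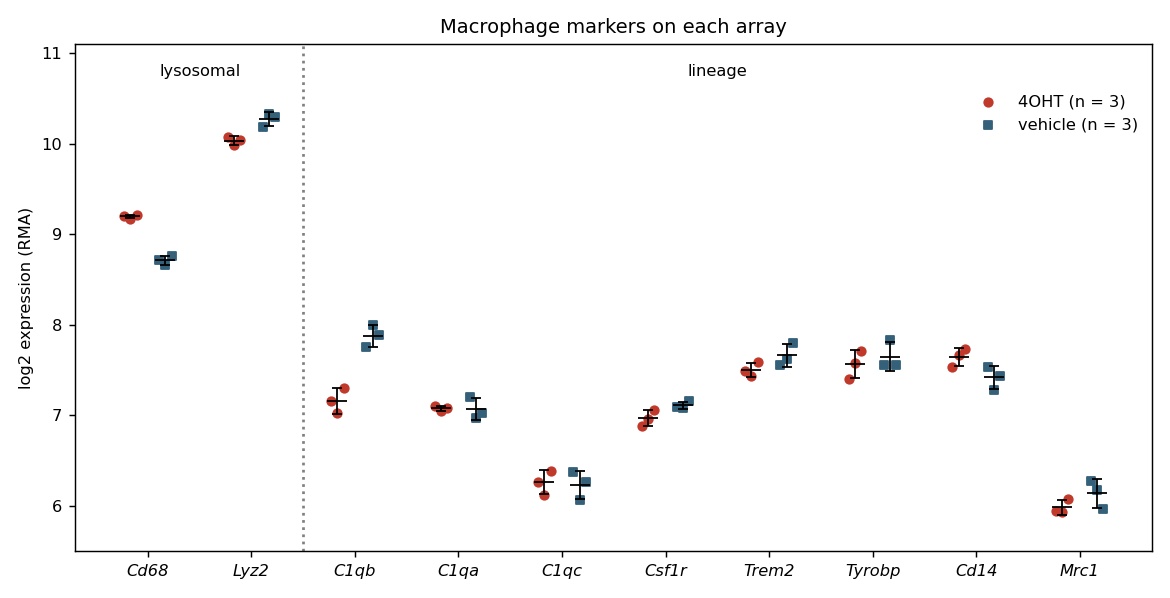
Log2 expression (RMA) of the 10 markers on each array, with 4OHT wells as circles on the left and vehicle wells as squares on the right of each gene, and the mean ± SD (n = 3) as bars. The 4OHT values of Cd68 lie above all vehicle values, and those of C1qb, Lyz2 and Csf1r below all vehicle values.

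Cd68 had log2 expression values of 9.20, 9.17 and 9.21 in 4OHT wells, against 8.71, 8.66 and 8.76 in vehicle wells. The groups did not overlap, and the gap was several times the spread within either group. The means were 9.19 ± 0.02 and 8.71 ± 0.05 (SD, n = 3), a log2 change of 0.48 (SE 0.046, 95% interval 0.38 to 0.59, limma adjusted p = 0.0014). The call held without any of the 6 arrays, with log2 changes of 0.46 to 0.51.

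Lyz2 had values of 10.1, 9.98 and 10.0 in 4OHT wells, against 10.2, 10.3 and 10.3 in vehicle wells. The groups did not overlap, but they lay close together. Lyz2 fell by 0.24 on the log2 scale (SE 0.055, 95% interval -0.37 to -0.11, limma adjusted p = 0.0374). The call did not survive leaving out any of the 4OHT arrays (adjusted p of 0.0772, 0.129 and 0.0791 for replicates 1, 2 and 3), vehicle replicate 2 (0.121) or vehicle replicate 3 (0.0962), nor centring every array on its median (0.0598). Lyz1, a near-identical copy of the lysozyme gene whose transcript a probe could also read, had a log2 change of 0.02 (adjusted p = 0.929), and its direction turned with array weights and on leaving out vehicle replicate 1, 4OHT replicate 1 or 4OHT replicate 3. The 2 lysosomal markers therefore passed in opposite directions.

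Of the C1q chain genes 1 was called, C1qb. C1qb had values of 7.16, 7.02 and 7.30 in 4OHT wells, against 7.75, 7.99 and 7.88 in vehicle wells. All 4OHT values were below all vehicle values, and C1qb fell by 0.72 on the log2 scale (SE 0.092, 95% interval -0.94 to -0.50, limma adjusted p = 0.00463). Its call held without any of the 6 arrays, with log2 changes of -0.79 to -0.65. C1qa had values of 7.10, 7.05 and 7.07 in 4OHT wells, against 7.20, 6.97 and 7.02 in vehicle wells. C1qc had values of 6.27, 6.12 and 6.39 in 4OHT wells, against 6.37, 6.06 and 6.26 in vehicle wells. The groups overlapped for both of these chains. The log2 changes were 0.01 for C1qa (95% interval -0.15 to 0.17, adjusted p = 0.934) and 0.03 for C1qc (95% interval -0.21 to 0.26, adjusted p = 0.899), and both turned sign when some single arrays were left out, as without vehicle replicate 2.

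Some markers of other cells that a lung culture can hold changed alongside C1qb. Of 12 endothelial genes 4 fell and 2 rose, with Erg, an endothelial transcription factor gene, falling by 0.99 on the log2 scale (limma adjusted p = 0.000188), Cdh5, which encodes VE-cadherin, by 0.95 (0.000292) and Emcn, an endothelial sialomucin gene, by 0.92 (0.0155), while Tek, the angiopoietin receptor gene, rose by 0.42 (0.0117). On leaving out an array 1 rose each time, and 2 fell without 4OHT replicate 2; the call of Emcn was lost without that array (0.0536) or vehicle replicate 3 (0.0529). The mean log2 level of the endothelial list was 7.23 to 7.25 in 4OHT wells, against 7.37 to 7.49 in vehicle wells. Its median log2 change was 0.01, so the lower mean was not shared by the list as a whole. Of 20 fibroblast genes 5 fell and none rose, with a median log2 change of -0.11. Their mean level was 12.32 to 12.34 in 4OHT wells, against 12.44 to 12.46 in vehicle wells. Of 12 epithelial genes 1 fell. The shares called were 50% of the endothelial, 25% of the fibroblast and 8.3% of the epithelial genes, against 12.0% of all genes. The part of these cells in the change of C1qb was not tested.

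The difference between the chains was then taken within each array. C1qb minus C1qa was 0.08 ± 0.13 in 4OHT wells and 0.81 ± 0.24 in vehicle wells on the log2 scale (SD, n = 3). C1qb minus C1qc was 0.90 ± 0.01 in 4OHT wells and 1.65 ± 0.28 in vehicle wells, while C1qa minus C1qc was 0.82 ± 0.12 in 4OHT wells and 0.83 ± 0.07 in vehicle wells. The groups did not overlap in the differences that involve C1qb, which reuse the C1qb values already called and are not separate evidence. Exact two-sided permutation tests gave p = 0.1 for each of these, the smallest that 3 arrays against 3 can give, and p = 1 for C1qa minus C1qc. Adjusted over the 3 comparisons the values were 0.15, 0.15 and 1. Because p cannot fall below 0.1 here, no outcome could have passed the threshold used for calls. The permutation test therefore cannot decide whether the chains differed in response. C1qc was among the dimmest of the markers, with a mean of 6.24, and whether its probe set reads its transcript was not tested.

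The chain genes are direct neighbours on mouse chromosome 4, in the order C1qb, C1qc, C1qa. RefSeq promoter windows of 300 bases, from 250 before to 50 after the annotated start, were matched for 6 of the 10 markers, Cd68, Lyz2, C1qb, C1qc, Mrc1 and Trem2. Those of C1qb and C1qc are shown because the one was called and its neighbour was not, and that of Cd68 because it was the marker that rose. Capitals mark GAGGAA or its reverse complement TTCCTC, a purine-rich sequence read by PU.1, the transcription factor of the myeloid lineage encoded by Spi1.
C1qb, GRCm38.p6 chr4:136886151-136886450, minus strand: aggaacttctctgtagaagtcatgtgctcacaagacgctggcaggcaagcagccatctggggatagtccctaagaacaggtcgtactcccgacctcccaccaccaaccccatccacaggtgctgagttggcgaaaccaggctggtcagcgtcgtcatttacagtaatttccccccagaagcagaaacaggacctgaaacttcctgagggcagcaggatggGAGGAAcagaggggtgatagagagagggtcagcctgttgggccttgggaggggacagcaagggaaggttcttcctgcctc
C1qc, GRCm38.p6 chr4:136892865-136893164, minus strand: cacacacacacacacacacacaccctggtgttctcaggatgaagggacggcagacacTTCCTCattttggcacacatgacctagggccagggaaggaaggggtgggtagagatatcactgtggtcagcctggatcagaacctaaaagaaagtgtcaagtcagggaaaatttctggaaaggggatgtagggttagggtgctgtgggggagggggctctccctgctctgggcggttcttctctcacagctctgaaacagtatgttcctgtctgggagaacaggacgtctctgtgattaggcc
Cd68, GRCm38.p6 chr11:69666121-69666420, minus strand: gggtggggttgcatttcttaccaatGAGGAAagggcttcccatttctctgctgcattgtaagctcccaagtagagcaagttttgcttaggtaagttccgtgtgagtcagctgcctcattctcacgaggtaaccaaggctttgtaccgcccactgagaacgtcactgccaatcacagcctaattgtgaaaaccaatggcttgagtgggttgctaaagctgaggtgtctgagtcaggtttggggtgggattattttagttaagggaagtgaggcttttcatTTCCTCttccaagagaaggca
The match lies 30 bases before the start in C1qb and 193 bases before it in C1qc, and Cd68 has matches 225 bases before and 29 bases after its start. These exact letters were found in 5 of the 6 windows, in all but that of Lyz2. They were found in 28.3% of all 32851 windows searched on both strands. Other sequences that PU.1 may read were not searched, so a window without these letters is not shown to lack a PU.1 site. None of the 6 windows held CACGTG, the E-box core that TFEB and its relatives read in lysosomal genes, which 7.15% of all windows held. A match is a description of these letters and not a measured binding site.

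**Figure D2:**
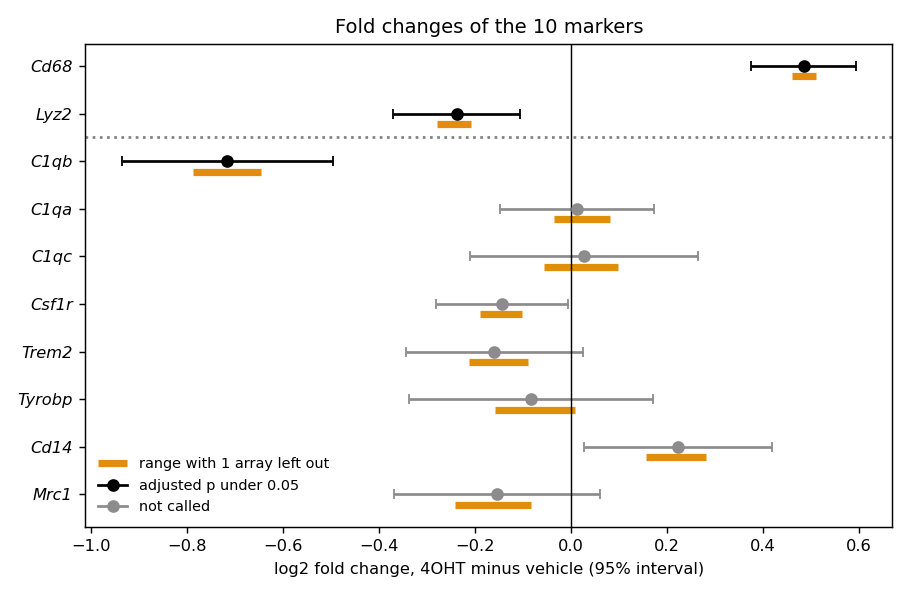
Log2 changes (4OHT minus vehicle) of the 10 markers with 95% intervals, black where the adjusted p was under 0.05, and the range obtained on leaving out each array in turn as orange bars. Cd68 lies at 0.48 and C1qb at -0.72, while the intervals of C1qa and C1qc span 0.

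The surface receptors of the lineage did not pass. Csf1r had values of 6.88, 6.96 and 7.06 in 4OHT wells, against 7.09, 7.08 and 7.15 in vehicle wells. The groups did not overlap, by a narrow margin, and the log2 change was -0.14 (95% interval -0.28 to -0.01, adjusted p = 0.173). Trem2 had values of 7.48, 7.43 and 7.58 in 4OHT wells, against 7.55, 7.62 and 7.80 in vehicle wells, with a log2 change of -0.16 (95% interval -0.34 to 0.02, adjusted p = 0.246). Tyrobp had values of 7.40, 7.57 and 7.71 in 4OHT wells, against 7.55, 7.83 and 7.55 in vehicle wells. Its groups overlapped widely, with a log2 change of -0.08 (95% interval -0.34 to 0.17, adjusted p = 0.676).

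Mrc1 had values of 5.94, 5.92 and 6.07 in 4OHT wells, against 6.28, 6.17 and 5.96 in vehicle wells, with a log2 change of -0.15 (95% interval -0.37 to 0.06, adjusted p = 0.334). Cd14 was the lineage marker with the most positive log2 change, at 7.53, 7.66 and 7.73 in 4OHT wells, against 7.53, 7.28 and 7.43 in vehicle wells. In both genes the groups overlapped. The log2 change of Cd14 was 0.22 (95% interval 0.03 to 0.42, adjusted p = 0.141), and it was called when only genes above the median level were tested (adjusted p = 0.04999).

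The table gives no detection calls, so the brightness of the markers was described beside that of genes of cells that a fibroblast culture should not hold. A probe set's brightness also depends on its sequence, so these values do not order the genes by transcript number. The means of the 8 lineage markers over the 6 arrays lay between 6.06 for Mrc1 and 7.60 for Tyrobp, with a median of 7.29. The 36 genes of lymphocytes, neutrophils and mast cells lay between 3.56 and 9.25, with a median of 5.95, and the median of all genes was 7.46. C1qa, C1qb, Csf1r, Cd14, Trem2 and Tyrobp were each brighter than all but 2 of these 36 genes and all but 0.362% to 1.99% of 1105 olfactory receptor genes. The 2 brighter genes were Gata2 at 9.25 and Nkg7 at 7.64. Both were themselves called lower in 4OHT wells, by 0.36 (limma adjusted p = 0.00327) and 0.47 (0.0334) on the log2 scale. C1qc and Mrc1 were dimmer, with 11 and 16 of the 36 genes above them, and lay below the 95th percentile of the olfactory receptor genes, 6.47. Cd68 had a mean of 8.95 and Lyz2 of 10.2, and 20 fibroblast genes lay between 9.20 and 14.3. The 39 further markers of macrophages and monocytes had means of 4.32 to 10.95 with a median of 6.33, and the 26 pan-leukocyte genes of 5.31 to 12.1 with a median of 7.07. Among their defining genes the mean was 5.31 for Ptprc, the pan-leukocyte antigen CD45, 6.18 for Adgre1, which encodes F4/80, 6.61 for Itgam and 7.18 for Spi1.

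**Figure D3:**
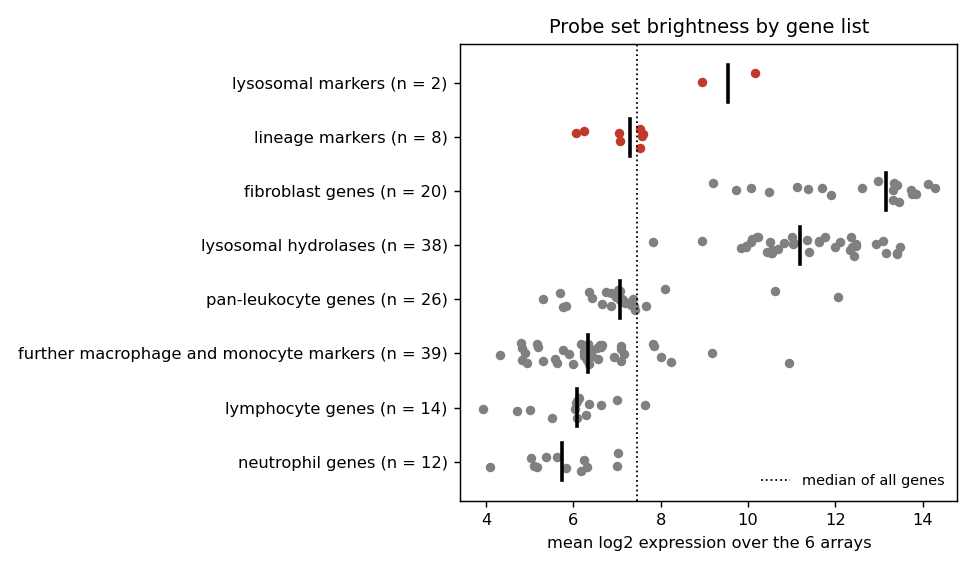
Mean log2 expression over the 6 arrays of each gene of 8 lists, 1 point per gene, with the median of each list as a bar and the median of all genes as a dotted line. The lineage markers lie between 6.06 and 7.60 with a median of 7.29, against 6.09 for the lymphocyte genes and 7.07 for the pan-leukocyte genes, and the fibroblast genes lie above 9.

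Of the further macrophage markers 5.1% and of the pan-leukocyte genes 3.8% were called, against 12.0% of all genes. Of 39 measured further markers of macrophages and monocytes, 2 were lower and none was higher (4 lower and 3 higher at an unadjusted p under 0.05, against 26.4% of all genes), with a median log2 change of -0.03. Ms4a7, a membrane protein gene of macrophages, fell by 0.65 on the log2 scale (adjusted p = 0.0188), and C5ar1, the receptor for complement C5a, fell by 0.32 (adjusted p = 0.0223). On leaving out an array, 0 were lower in the absence of 4OHT replicate 1, 4OHT replicate 2 or vehicle replicate 3, 1 in that of vehicle replicate 1 or vehicle replicate 2, and 3 in that of 4OHT replicate 3, and 1 was higher in the absence of 4OHT replicate 2. Adgre1 had a log2 change of -0.26 (adjusted p = 0.191), Fcgr1, a high-affinity antibody receptor gene, of 0.20 (0.433) and Mertk, a receptor for apoptotic cells, of -0.12 (0.275).

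Of 26 pan-leukocyte genes 1 was lower, Alox5ap, which acts in leukotriene synthesis, and none was higher. The share called was 3.8%, against 12.0% of all genes. At an unadjusted p under 0.05 by limma, 4 were lower and 1 higher, against 26.4% of all genes. Alox5ap fell by 0.27 on the log2 scale (adjusted p = 0.0237), a call that did not hold on leaving out 4OHT replicate 1 or 2 or vehicle replicate 2 or 3 (adjusted p from 0.0655 to 0.0928). Ptprc had a log2 change of 0.08 (adjusted p = 0.66), Spi1 of -0.06 (0.695), Itgam of -0.04 (0.822) and Laptm5, a lysosomal protein gene of blood cells, of -0.20 (0.0986). The median of the list was -0.01.

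Within the 4OHT group, replicate 3 had the highest value in 7 of the 8 lineage markers and in 20 of 26 pan-leukocyte genes (76.9%), against 39.4% of all genes. The share was 48.7% among the 39 further macrophage markers, 28.6% among 14 lymphocyte genes and 30.0% among 20 fibroblast genes. The mean log2 value of the lineage markers was 6.97, 6.97 and 7.11 in 4OHT wells, against 7.17, 7.13 and 7.13 in vehicle wells. With C1qb included, 4OHT replicate 3 thus lay nearest to the vehicle wells. Without C1qb the means were 6.944, 6.960 and 7.087 in 4OHT wells, against 7.083, 7.003 and 7.025 in vehicle wells. The groups then overlapped, and 4OHT replicate 3 lay above every vehicle well. The lower mean in all 4OHT wells therefore rested on C1qb. On leaving out 4OHT replicate 3, 1 lineage marker was lower, as with that array, and Adgre1 was lower (adjusted p = 0.0323). The part of this array in the results was not tested beyond leaving it out.

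Lysosomal genes that most cells use rose, as Cd68 did, in larger numbers than they fell. Of 26 measured lysosomal membrane and accessory genes 16 rose and 2 fell, with a median log2 change of 0.21. Over all genes 5.38% were called higher and 6.62% lower. Ctns, the cystine exporter, rose by 0.65 on the log2 scale (adjusted p = 0.000935), Scarb2, the membrane protein that delivers glucocerebrosidase, by 0.59 (0.00125), Tmem192 by 0.50 (0.00204) and the chloride-proton exchanger gene Clcn7 by 0.49 (0.000852). Of 38 lysosomal hydrolases 16 rose and 1 fell, with a median of 0.16. The peptidase gene Dpp7 rose by 0.76 (adjusted p = 0.000236), the alpha-galactosidase gene Gla by 0.65 (0.000822), the sialidase gene Neu1 by 0.47 (0.00137) and Scpep1 by 0.40 (0.00179). Lamp1 and Lamp2, relatives of Cd68 among lysosomal membrane proteins, rose by 0.22 (adjusted p = 0.015) and 0.21 (adjusted p = 0.0223). The calls of Lamp1 and Lamp2 did not hold on leaving out 4OHT replicate 1, 4OHT replicate 2 or vehicle replicate 2, nor that of Lamp2 on leaving out vehicle replicate 1 or vehicle replicate 3 (adjusted p from 0.0558 to 0.0914). Leaving out 4OHT replicate 1 left 9 membrane genes that rose, 4OHT replicate 2 left 7, vehicle replicate 1 left 10 and vehicle replicate 2 left 8, and each of these arrays left 10 hydrolases.

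**Figure D4:**
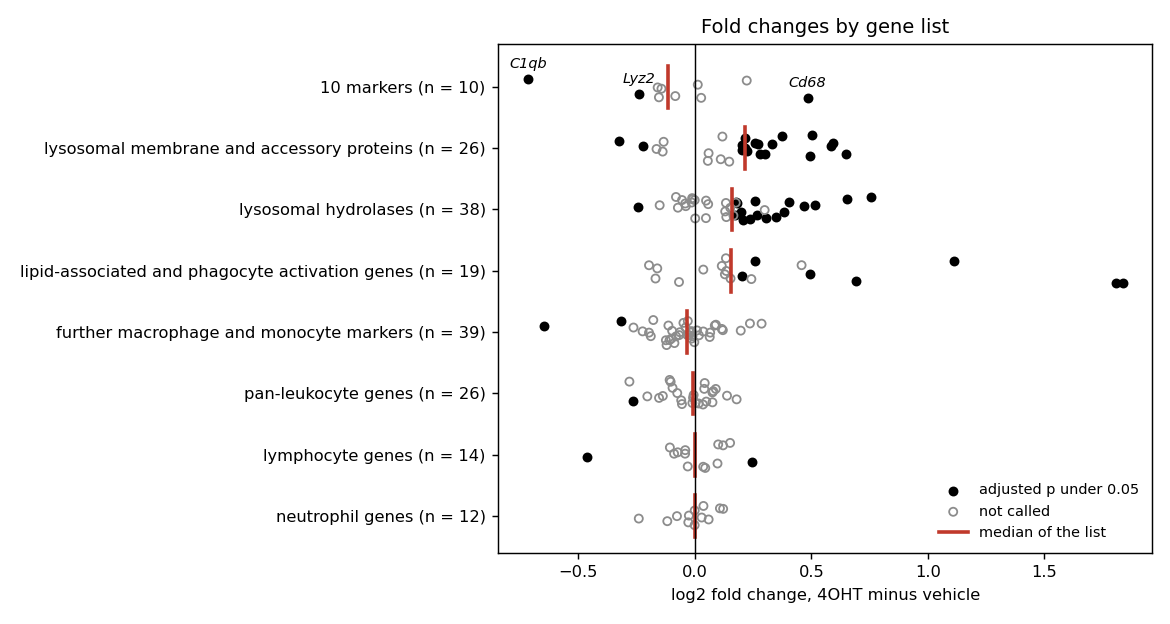
Log2 fold changes (4OHT minus vehicle) of the 10 markers and of the genes of 7 lists, 1 point per gene, filled where the adjusted p was under 0.05, with the median of each list as a red bar. The lysosomal lists have medians of 0.21 and 0.16, while the further macrophage and pan-leukocyte lists centre on -0.03 and -0.01.

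The transcription factors that drive lysosomal genes did not pass by limma: 0 of 4 were called, against 12.0% of all genes. At an unadjusted p under 0.05, which 26.4% of all genes passed, 2 were higher. Mitf had a log2 change of 0.36 (adjusted p = 0.0511), Tfec of 0.34 (0.0812), Tfe3 of 0.09 (0.375) and Tfeb of -0.13 (0.252). Mitf was called in several of the other settings, such as centring each array on its median (adjusted p = 0.0419).

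Genes of lipid-laden and activated phagocytes, several of which other cells also use, were read as a further list. It was not separate from the others. Cd63, Ctsb, Ctsd and Ctsl are also in the lysosomal lists, and Plin2, Itgax and Clec7a in the further macrophage list. Apoe is also in the list of TREM2 and TYROBP signalling. Of 19 measured, 7 rose and none fell (13 higher and 1 lower at an unadjusted p under 0.05, against 26.4% of all genes), with a median log2 change of 0.15. The share called was 36.8%, against 12.0% of all genes. Gpnmb, a glycoprotein of lysosomes and melanosomes, rose 3.51-fold to a log2 expression of 10.9 ± 0.10 in 4OHT wells, against 9.05 ± 0.09 in vehicle wells (SD, n = 3; adjusted p = 0.000162). The proton channel gene Hvcn1 rose 3.57-fold (adjusted p = 0.00039), Apoe, a lipoprotein that Trem2 binds, rose 2.16-fold (0.000346) and Lgals3, which encodes galectin-3, rose 1.61-fold (0.00549). The list had been chosen with the rises of Gpnmb and Hvcn1 known, so their direction is not independent evidence. Itgax and Clec7a, leukocyte genes of the same list, had log2 changes of 0.04 and -0.20 and did not pass. They were named after their values were seen, so they do not stand for the list.

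The partners of the markers were read by role. Of 15 measured genes of the C1 complex, early complement and C1q binding 2 rose and 2 fell. The share called was 26.6%, against 12.0% of all genes. The C1 protease genes C1ra and C1s1 had log2 changes of -0.10 (adjusted p = 0.628) and 0.09 (0.626), and the inhibitor gene Serping1 of -0.02 (0.786). Cd93, a surface protein once described as a C1q receptor and known from endothelium, fell by 0.83 (adjusted p = 0.00206), and the complement protease gene C2 rose by 0.55 (0.0131), a call lost without vehicle replicate 2 (0.0535) or 4OHT replicate 2 (0.0552). Of 17 genes of TREM2 and TYROBP signalling 1 rose, Apoe, already counted among the phagocyte genes, and 1 fell, Clu. The share called was 11.7%, near the 12.0% of all genes. The call of Clu held without vehicle replicate 1 and was lost on leaving out any other array. The adaptor genes Fcer1g and Hcst and the kinase gene Syk had log2 changes of -0.10, 0.06 and 0.02 and did not pass, and each turned sign on leaving out 1 array, 4OHT replicate 2 for Fcer1g and Syk and 4OHT replicate 1 for Hcst.

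Of 14 genes around Cd14 and the lipopolysaccharide receptor 2 rose and 2 fell. The share called was 28.5%, against 12.0% of all genes. Tlr4, the signalling receptor, rose by 0.36 on the log2 scale (adjusted p = 0.00471), and Ly96, its co-receptor MD-2, rose by 0.21 (adjusted p = 0.0246), a call that every one of the single arrays was needed for (adjusted p of 0.0568 to 0.0899 on leaving one out). The adaptor genes Myd88 and Ticam1 fell by 0.28 and 0.22; the call of Myd88 needed 4OHT replicates 1 and 2 and vehicle replicates 1 and 2, and that of Ticam1 needed every array. Mrc2, a relative of Mrc1 that fibroblasts use to take up collagen, had a log2 change of -0.01 (adjusted p = 0.891), which turned sign on centring each array on its median.

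Fibroblasts make signals that keep and attract macrophages. The CSF1 receptor ligand genes Csf1 and Il34 did not pass, with log2 changes of 0.07 (95% interval -0.04 to 0.19, adjusted p = 0.396) and 0.16 (95% interval -0.03 to 0.36, adjusted p = 0.259). Of the 12 genes of this list 3 fell and 1 rose, as they did without any of the 6 arrays. The share called was 33.3%, against 12.0% of all genes. The monocyte attractant genes Ccl2 and Ccl7 were 1.73-fold lower (adjusted p = 0.000307) and 1.60-fold lower (0.000822), and Cx3cl1, which encodes fractalkine, was 1.85-fold lower (0.000785). Ccl8, another monocyte attractant gene, was 1.89-fold higher (adjusted p = 0.00668).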

How the data were processed

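Total RNA of 6 cultures was labelled with biotin and measured on single-colour Affymetrix arrays. The deposited table holds log2 expression per probe set, made by the authors with RMA, and oligo and limma stand beside it, without versions, per the submitters' processing notes. RMA equalizes the distributions of the arrays, which removes a shift common to all genes and compresses fold changes of dim probe sets. The authors' genome build was not given in the sources used here.

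Of 41345 probe sets 23521 had 1 gene symbol, 1814 had several and 16010 had none in the platform annotation. The brightest probe set of each symbol gave 22180 genes. Arrays were grouped by their titles (4OHT n = 3, vehicle n = 3) and compared with limma 3.58.1 in R 4.3.3, with two-sided moderated tests on log2 values and Benjamini-Hochberg adjustment over all genes at 0.05. Log2 fold changes are 4OHT minus vehicle. The test was tried on simulated data. The 10 markers and the 19 linked lists were chosen with earlier results of these data known. Named were the markers, their partners, and up to 4 called genes of smallest p per list, and for each called marker the 3 genes of nearest profile; Itgax and Clec7a were added after their values were seen. Promoter sequences are from RefSeq (GRCm38.p6).

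Same-numbered wells did not pair: the correlations of their deviations from the group means were 0.06, -0.02 and 0.04. Alternatives were the replicate block, centring, repeated quantile normalization, a filter on dim genes, other handling of probe sets, trended and robust variances, array weights, other thresholds and leaving out each array.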

Additional observations from a re-analysis of the deposited data

How the results depend on the processing

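Cd68 and C1qb kept their direction and call in all 16 alternatives, with log2 fold changes of 0.46 to 0.51 and -0.79 to -0.65. Lyz2 kept its direction in 16 and lost its call in 8 of them, so that 1 lysosomal marker was called with the replicate number as a block, with the arrays centred on their medians, at an adjusted p under 0.01, and on leaving out any array other than vehicle replicate 1 (range 1 to 2). With the block the adjusted p of Lyz2 was 0.105, of Cd68 0.0116 and of C1qb 0.0238; the numbers do not pair the wells, and the block changed no other call among the markers. 1 lineage marker was called in the other settings, and 2 when only genes above the median level were tested, which left 4 of them, because Cd14 then passed. The genes called over the whole table were 1568 with the block, 4123 with trended and robust variances, 1010 at an adjusted p under 0.01 and 1220 to 2326 with 1 array left out.

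Small differences turned sign without a call. Without 1 array the log2 change ranged from -0.035 to 0.081 for C1qa, -0.056 to 0.097 for C1qc, -0.16 to 0.0086 for Tyrobp, -0.026 to 0.14 for Ptprc, -0.10 to 0.0024 for Spi1, -0.14 to 0.012 for Itgam, -0.0498 to 0.041 for Cd53, -0.20 to 0.013 for Fcer1g, -0.074 to 0.12 for Syk, -0.0099 to 0.15 for Hcst, -0.042 to 0.13 for Lyz1 and -0.0355 to 0.0081 for Mrc2. Cd53 was at 0.016 with the arrays centred, 0.017 with quantile normalization applied again and 0.0083 with array weights. Mrc2 was at 0.0078 with centring and 0.017 with quantile normalization applied again, and Lyz1 at -0.023 with array weights. The causes were not tested. Of 1455 values of the 93 named genes under alternatives, 1267 kept direction and call.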

Other observations

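Other blood cell lists are given beside the 12.0% of all genes that were called and the 26.4% that passed an unadjusted p under 0.05. Of 12 measured genes of antigen presentation and dendritic cells 1 was lower and none higher (2 lower and 1 higher at an unadjusted p under 0.05 by limma), and the call, that of the integrin gene Itgae (log2 fold change -0.23, adjusted p = 0.0146), was lost without vehicle replicate 2, 4OHT replicate 1 or 4OHT replicate 2. None of 12 neutrophil genes was called by limma, with 1 lower at an unadjusted p under 0.05. Of 14 lymphocyte genes 1 was higher, Prf1, and 1 lower, Nkg7; leaving out 4OHT replicate 2, vehicle replicate 1 or vehicle replicate 2 left none called, and leaving out any of the other arrays left 1. Of 10 mast cell and basophil genes 1 was higher, Cpa3, and 1 lower, Gata2; none was higher without vehicle replicate 2 or 3, and 2 were lower without 4OHT replicate 3. Of 10 osteoclast genes, which mark a macrophage-related lineage, 2 were higher and 1 lower, and 1 was higher on leaving out any array, since Acp5 lost its call each time. Ctsk, the collagen-degrading cathepsin gene of osteoclasts that fibroblasts also express, is counted among the lysosomal hydrolases too. It rose by 0.51 on the log2 scale (limma adjusted p = 0.00224). Oscar, an osteoclast receptor gene, fell by 0.28 (limma adjusted p = 0.0273). The call of Oscar held without 4OHT replicate 3 and was lost on leaving out any other array.

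The profiles nearest to the called markers over the 6 arrays were found by the root mean square difference of log2 values centred on each gene's mean. Nearest to Cd68 were Nsdhl, a cholesterol synthesis gene, at 0.027, Washc2 at 0.029 and the fatty acid desaturase gene Fads1 at 0.030, with Cd68 itself at 0.244 about its mean. Nearest to C1qb were 5430403N17Rik at 0.029, the axon guidance receptor gene Robo2 at 0.054 and Amdhd1 at 0.056, with C1qb at 0.374. Nearest to Lyz2 were Rgs11, Rnf32 and Alkbh4 at 0.018 to 0.023, with Lyz2 at 0.130.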
